A study of Mus musculus with 6 samples.

Results

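The genes of the subcortical maternal complex were followed in mouse 2-cell embryos that developed from delipidated or control zygotes. They were chosen by symbol as Nlrp5, Ooep, Tle6, Khdc3, Padi6, Zbed3, Nlrp2 and Nlrp4f, which makes 8 of the 48967 genes with at least 1 exonic part. All 8 passed the filter on low counts and were among the 16020 genes tested.

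The subcortical maternal complex is a large protein assembly that the growing oocyte builds beneath its cortex and passes on to the embryo. NLRP5, OOEP, TLE6 and KHDC3 are its best known subunits, and the other members are oocyte proteins linked to it. Mouse embryos whose mothers lack a core subunit commonly stop developing at an early cleavage stage, and most of the RNA for these proteins is made before ovulation.

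RNA was sequenced from 3 control and 3 delipidated libraries, each prepared from a pool of 3 embryos. All embryos were wild type (wt in the labels), of the F1 (C57Bl/10 X CBA/H) strain, and were kept in KSOM without fatty acids from 0.5 to 2.0 dpc, which the labels call day 2. Delipidated zygotes were treated with cytochalasin B and centrifuged, and the lipid droplets were aspirated through a laser opening in the zona pellucida. Control zygotes are described as cultured in vitro only, so lipid removal and the handling that came with it cannot be told apart. By the study's methods, embryos of several females were mixed before they were assigned at random to a group, and the 3 libraries of a group are subsets of its embryos. The p-values therefore measure the spread between subsets of a shared collection. The assigned counts were 12164963, 16165958 and 12980787 in control replicates 1 to 3 and 20059460, 16332103 and 14683741 in delipidated replicates 1 to 3. Genes with at least 1 count numbered 22855, 22437 and 20582 in controls and 17091, 19408 and 20158 after delipidation, fewer in every delipidated library and fewest in delipidated replicate 1, which had the most counts. The part of this in low counts and counts of 0 was not tested. A read that spans several exonic parts is counted in each of them, so summed counts exceed the number of reads. In pools of whole embryos, fewer cells of a kind and less RNA per cell cannot be told apart.

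The RNA of every member was detected in all 6 libraries, and the levels of different members lay far apart. Zbed3 was the most abundant member and Khdc3 the least abundant. Delipidated and control embryos overlapped in the level of each of the 8 genes. To compare genes with each other, counts were divided by the length of the exonic parts in kilobases and scaled to a total of 1000000 in every library, here called the length-scaled level. For the comparison between groups, CPM were used, in which a library's counts are scaled by its total to 1000000 and by its TMM normalization factor.

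**Figure D1:**
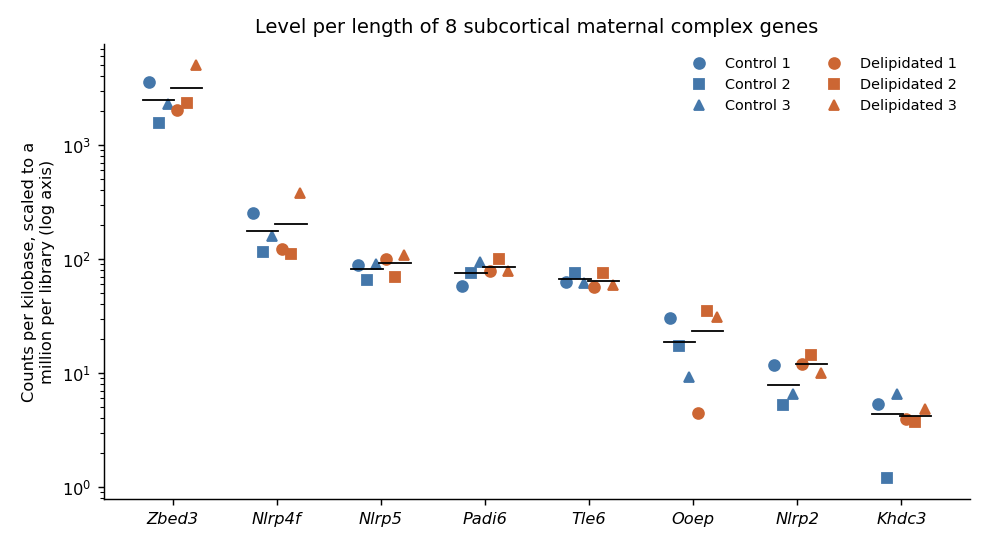
Length-scaled level (counts per kilobase scaled to 1000000 per library, log axis) of the 8 genes, ordered by their mean over 6 libraries. Each point is 1 library and each line the mean of 3; Zbed3 lies above the other genes in every library, between 1576 and 5073, and the colours of the groups overlap for each gene.

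Zbed3 had a mean length-scaled level of 2494 ± 1029 (SD, n = 3) in control and 3135 ± 1685 (SD, n = 3) in delipidated embryos. Its mean over all libraries was higher than that of 99.9% of the tested genes. Nlrp4f came next with 175 ± 70.5 (SD, n = 3) in control and 204 ± 152 (SD, n = 3) in delipidated embryos. Zbed3 therefore stood 14.8-fold above the next member in the mean, and it was the higher of the pair in 6 of 6 libraries. Of the summed length-scaled level of the 8 genes, Zbed3 made up between 81.6% in control replicate 2 and 88.3% in delipidated replicate 3.

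By the summed length of their parts, Nlrp5, Padi6 and Tle6 formed a middle group. Their control means on the length-scaled level were 81.3 ± 14.2 for Nlrp5, 75.9 ± 18.1 for Padi6 and 67.0 ± 7.52 for Tle6 (SD, n = 3 each). Nlrp5 exceeded Padi6 in 3 of 6 libraries and Padi6 exceeded Tle6 in 4 of 6. On this level, these neighbours did not differ beyond the spread of their libraries. Nlrp4f lay above Nlrp5 in all 6 libraries, and the ranges of the 2 genes did not overlap, with 110 as the lowest value of Nlrp4f and 109 as the highest of Nlrp5. On this level Tle6, from 56.6 to 75.7, also kept clear of Ooep, which ranged from 4.47 to 35.3. However, Tle6 has 43 parts and Ooep 3, and a read over short parts is counted in several of them. The gap between their means was much smaller with lengthened parts, given below.

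The low end of the order held Ooep, Nlrp2 and Khdc3. Ooep had a control mean of 18.9 ± 10.6 (SD, n = 3) on the length-scaled level, Nlrp2 one of 7.89 ± 3.42 and Khdc3 one of 4.39 ± 2.83. Ooep exceeded Nlrp2 in 5 of 6 libraries and Nlrp2 exceeded Khdc3 in 6 of 6, but in both pairs the ranges over the libraries overlapped. The level of Khdc3 used 7 of its 14 parts. With the other parts added, an alternative chosen after seeing the data, its control mean was 6.36, closer to that of Nlrp2. Whether Nlrp2 still exceeded Khdc3 in every library was not compared for this alternative. Of the tested genes, 72.2% had a lower mean level than Ooep, 57.4% a lower one than Nlrp2 and 39.5% a lower one than Khdc3. With each part lengthened by 149 bases for reads that cross its edges, an alternative chosen after seeing the data, the order of the 8 genes was the same. Means over all libraries were then 107 for Nlrp5, 78.1 for Padi6, 44.8 for Tle6 and 36.9 for Ooep. Tle6 thus lay nearer to Ooep than to Padi6, so the middle group did not hold. The ranges over single libraries were not compared with these lengths. With the longest part of each gene alone, the order of the means over all libraries changed. Nlrp5 fell below Nlrp2, and the other members kept their order. In control means from these parts, Nlrp5 (1.13) also lay below Khdc3 (1.74).

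No member was called different between delipidated and control embryos. In edgeR's quasi-likelihood test, a call required an adjusted p-value (Benjamini-Hochberg, over all tested genes) below 0.05 together with a log2 fold change larger than 1 in size. Of the members 0 of 8 passed, beside 0% of all tested genes. At an unadjusted p-value under 0.05 the count was again 0 of 8, against 2.89% of all tested genes. DESeq2's Wald test with no filter also called 0 members and gave 0 of them an unadjusted p-value under 0.05, beside 0.159% and 4.35% of 30850 genes. In limma-voom both counts were 0 as well, beside 0% and 3.86% of all tested genes. In the DESeq2 fit, 11524 of 30967 genes had no adjusted p-value and could not be called. The groups separated in CPM for 0 of the 8 genes, beside 8.86% of all tested genes. With 3 libraries against 3, an exact two-sided permutation test cannot go below p = 0.1.

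The log2 fold change was positive for 6 members and negative for 2, with a median of 0.19 beside a median of -0.00073 over all tested genes. This split depended on single libraries. Without delipidated replicate 3, Zbed3 was at -0.19 and Nlrp4f at -0.58. Without delipidated replicate 1, Tle6 was at 0.03. The 95% intervals of Nlrp5, Tle6 and Padi6 stayed within a log2 change of 1 in either direction, and those of the other 5 members did not. Adjusted p-values of the 8 genes were all 1.00, and the smallest unadjusted one was 0.183, for Nlrp2.

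**Figure D2:**
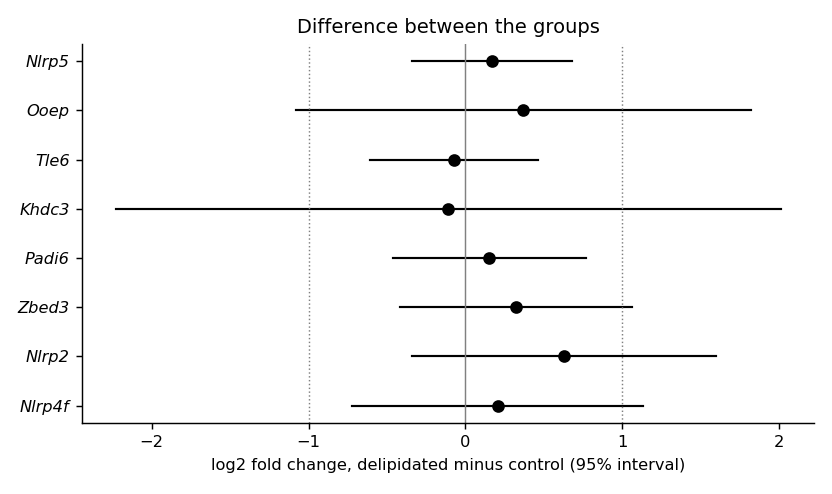
Log2 fold change of delipidated minus control embryos for the 8 genes (points) with 95% intervals (lines) from edgeR's quasi-likelihood fit, 3 libraries per group. All 8 intervals include 0; the widest is that of Khdc3, from -2.23 to 2.01, and dotted lines mark changes of 1 in either direction.

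Among the core subunits, Nlrp5 encodes the NLR family protein also known as MATER, a founding member of the class of maternal-effect genes. It reached 203, 151 and 236 CPM in control replicates 1 to 3 and 232, 178 and 255 CPM in delipidated replicates 1 to 3. The highest library was delipidated and the lowest was control, but the middle values of the groups interleaved. The group means were 197 ± 42.6 CPM in control and 222 ± 39.7 CPM in delipidated embryos (SD, n = 3 each). The fitted difference was 0.17 on the log2 scale (delipidated minus control, standard error 0.23), with an interval from -0.34 to 0.68. With 1 library left out, it lay between 0.01 (without control replicate 2) and 0.32 (without control replicate 3). Together with Tle6, Nlrp5 varied little between libraries, with a ratio of 1.68 between its highest and lowest CPM.

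Tle6, a relative of the Groucho corepressors that serves as a structural subunit, was as even. Its values were 92.0, 113 and 104 CPM in controls and 83.0, 122 and 88.7 CPM after delipidation. Delipidated replicate 2 was the highest library and delipidated replicate 1 the lowest, so the control values lay inside the delipidated range. On the log2 scale the groups differed by -0.07 (delipidated minus control, standard error 0.24; interval from -0.61 to 0.46). It turned to 0.03 without delipidated replicate 1, to -0.26 without delipidated replicate 2 and to 0.22 when only the part with the most counts was used.

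Ooep, which encodes the KH-domain subunit FLOPED, was far less even. It had 361, 296 and 140 summed counts in the control libraries, or 30.5, 17.9 and 10.6 CPM. The delipidated libraries had 92, 643 and 456 counts, or 4.54, 39.5 and 32.2 CPM. Delipidated replicate 1 was the lowest of the 6 libraries and the other delipidated libraries were the highest, with the control values between them. The ratio of the highest to the lowest CPM was 8.70, the largest among the members. The log2 fold change of 0.37 (standard error 0.66) had an interval from -1.08 to 1.82, and it was -0.10 without delipidated replicate 2 and 0.87 without delipidated replicate 1. limma-voom gave -0.11.

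The spread of Ooep was shared by its 3 exonic parts. The last exon, of 1583 bases at chr9:78376109-78377691, had 152, 107 and 53 counts in controls and 38, 234 and 164 after delipidation. The 183-base part at chr9:78377975-78378157 had 127, 118 and 48 counts in control and 43, 265 and 190 in delipidated embryos. In both parts delipidated replicate 1 was the lowest library and delipidated replicate 2 the highest.

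Khdc3 encodes FILIA, the other KH-domain subunit, and had the fewest counts. All 14 of its exonic parts, between 73101836 and 73104438 on the forward strand of chromosome 9, are listed under an identifier joined with the neighbour Rsl24d1 and the readthrough gene Gm20509. The 7 parts that overlap exons of Khdc3 alone held 38, 12 and 59 counts in controls and 48, 40 and 42 after delipidation. This corresponded to 3.21, 0.73 and 4.48 CPM in control and 2.37, 2.46 and 2.97 CPM in delipidated embryos. The control libraries held both the highest and the lowest value. Its fitted log2 fold change was -0.11 (standard error 0.97), and the interval from -2.23 to 2.01 reached up to a 4.03-fold increase. It was -0.56 without control replicate 2, 0.02 without control replicate 1, 0.40 without control replicate 3, 0.35 in limma-voom and 0.76 when only the part with the most counts was used.

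The 7 parts that Khdc3 shares with Gm20509 had 56, 46 and 48 counts in controls and 163, 107 and 112 after delipidation. In CPM they were higher in every delipidated library than in any control library, a feature singled out after its values were seen. In the annotation, 34.1% of the 50-base windows of Khdc3 transcripts also occur in Gm20509, so the counts of these parts cannot be given to either gene. With the shared parts added, an alternative chosen after seeing the data, the counts were 94, 58 and 107 in control and 211, 147 and 154 in delipidated embryos. The groups then did not overlap in CPM, beside 8.86% of all tested genes with their usual parts, and the log2 fold change was 0.63 with an adjusted p-value of 1.00 in edgeR's quasi-likelihood test.

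Padi6 encodes a peptidylarginine deiminase family protein that oocytes need to form cytoplasmic lattices. Its control values were 69.6, 91.4 and 129 CPM and its delipidated values 94.2, 132 and 96.9 CPM. Control replicate 1 was the lowest library and delipidated replicate 2 the highest, with control replicate 3 just below it. Delipidated minus control came to 0.15 on the log2 scale (standard error 0.28, 95% interval from -0.46 to 0.77). It was -0.03 without control replicate 1, -0.02 without delipidated replicate 2 and 0.41 without control replicate 3.

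Zbed3 encodes a zinc finger protein that binds axin in Wnt signalling and is linked to the symmetric first division of the mouse zygote. It had 3225, 1437 and 2356 CPM in controls and 1814, 2299 and 4651 CPM after delipidation. Delipidated replicate 3 stood above all other libraries, control replicate 1 was second, and the remaining values of the groups overlapped. The fitted difference was 0.32 on the log2 scale (delipidated minus control, standard error 0.34), with an interval from -0.42 to 1.06. Without delipidated replicate 3 it was -0.19, and without control replicate 1 it was 0.64.

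Nlrp4f, an NLRP gene of the oocyte that is linked to the placing of organelles, followed the same libraries. Its values were 421, 195 and 302 CPM in controls and 207, 203 and 647 CPM after delipidation. Delipidated replicate 3 was again the highest and control replicate 1 the second, while the other delipidated libraries lay close to control replicate 2, the lowest. The log2 fold change was 0.20 (standard error 0.42) with an interval from -0.72 to 1.13. It was -0.58 without delipidated replicate 3, -0.03 without control replicate 2 and 0.52 without control replicate 1.

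Nlrp2, whose loss in the mother lowers fertility in mice, had the largest fitted difference of the 8 genes with all libraries in the fit. It had 231, 148 and 165 counts in the control libraries, or 19.5, 8.95 and 12.5 CPM. The delipidated libraries had 402, 430 and 241 counts, or 19.8, 26.4 and 17.0 CPM. Delipidated replicates 1 and 2 exceeded all control libraries, and delipidated replicate 3 lay below control replicate 1. On the log2 scale the groups differed by 0.63 (delipidated minus control, standard error 0.44; interval from -0.34 to 1.60). It rose to 0.98 without control replicate 1. With 1 library left out, another member differed more in size in 3 of 6 cases: without control replicate 2, with 0.40 for Nlrp2 and -0.56 for Khdc3; without delipidated replicate 1, with 0.67 for Nlrp2 and 0.87 for Ooep; and without delipidated replicate 2, with 0.43 for Nlrp2, 0.47 for Zbed3 and 0.48 for Nlrp4f. The exact two-sided permutation p-value of its CPM was 0.2 (n = 3 per group), and its p-value in the edgeR fit ranked 1964 among the 16020 tested genes.

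In the exonic part of Nlrp2 with the most counts the groups did separate, as they did for 8.9% of 13364 genes when only the part with the most counts was used; the other 7 members did not separate there. This part of 321 bases at chr7:5337534-5337854 had 48, 52 and 17 counts in controls and 122, 118 and 78 after delipidation. All 3 delipidated libraries were higher in counts and in CPM. Over this part the fit gave a log2 fold change of 1.10, a standard error of 0.55, an interval from -0.07 to 2.27 and an adjusted p-value of 1.00 in edgeR's quasi-likelihood test. The largest part of Nlrp2, 1603 bases at chr7:5327408-5329010, had 65, 30 and 39 counts in control and 151, 129 and 16 in delipidated embryos. Here delipidated replicate 3 was the lowest library, so the parts of Nlrp2 did not order the libraries alike.

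**Figure D3:**
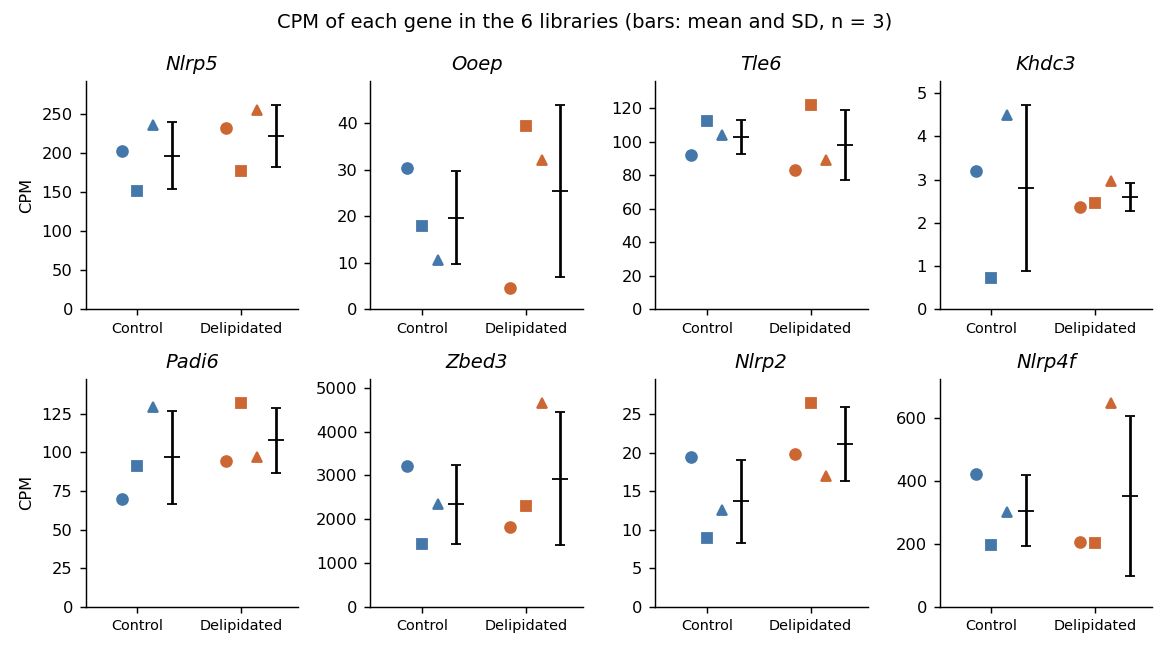
CPM of the 8 genes in each library, control in blue and delipidated in orange; circles, squares and triangles are replicates 1, 2 and 3, and bars give the mean and SD of 3 libraries. Delipidated replicate 3 is the highest library for Zbed3 (4651 CPM) and Nlrp4f (647 CPM), and delipidated replicate 1 is the lowest for Ooep (4.54 CPM).

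Single libraries stood out across the members. Control replicate 2 was the lowest library in CPM for 5 of the 8 genes, namely Nlrp5, Khdc3, Zbed3, Nlrp2 and Nlrp4f. Delipidated replicate 2 was the highest for 4, Ooep, Tle6, Padi6 and Nlrp2. Delipidated replicate 3 was the highest for 3, Nlrp5, Zbed3 and Nlrp4f. Delipidated replicate 1 was the lowest for Ooep and Tle6.

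Markers of RNA made in the oocyte, namely Zar1, Btg4, Dppa3 and Npm2, were all detected. Their summed level was 3332, 1979 and 3017 CPM in controls and 2421, 2367 and 3588 CPM after delipidation. Btg4 was the most abundant of them over all libraries, and Dppa3 exceeded it in delipidated replicate 1, with 22167 against 21944 counts. Control replicate 2 was the lowest and delipidated replicate 3 the highest library in this sum, as they were for Zbed3 and Nlrp4f. The summed markers of the 2-cell stage (Zscan4c, Zscan4d, Zfp352, Tdpoz4 and Usp17la, all 5 detected) were 203, 87.1 and 219 CPM in control and 129, 183 and 229 CPM in delipidated embryos, with Zfp352 as the most abundant. Control replicate 2 was the lowest here too. The part of these levels in the spread of the members was not tested.

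The genes whose CPM over the 6 libraries ran most alike the mean of the 8 members, after each member was standardized on the log2 scale, were Ddx11, Max, Arpc4, Ybx3 and Apol7e. Pearson's r was 0.986 for Ddx11, 0.978 for Max, 0.978 for Arpc4, 0.976 for Ybx3 and 0.976 for Apol7e, the highest of 8120 genes searched. Ddx11 had 30.7, 12.4 and 33.5 CPM in control and 16.4, 32.9 and 38.6 CPM in delipidated embryos. Like the mean of the members, it was lowest in control replicate 2, second lowest in delipidated replicate 1 and highest in delipidated replicate 3. Between 2 members, the highest r over the 6 libraries was 0.941, for Zbed3 and Nlrp4f, and the lowest was -0.732, for Nlrp5 and Tle6. These values describe 6 libraries, and genes measured in the same library share its depth and composition.

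The counts of Nlrp5 were uneven along the transcript. The gene lies on the forward strand of chromosome 7 between 23385889 and 23441922 and has 23 exonic parts of 4847 bases in all. Its first 8 parts span 508 bases and held between 59.7% (control replicate 1) and 76.3% (control replicate 3) of its counts. In the mean of the libraries this came to 4.30 counts per base, against 0.31 over the next 2 parts and 0.36 over the last 12. A read over short parts is counted in several of them, and how much of this contrast comes from that was not tested. The longest part, 1306 bases at chr7:23418862-23420167, had 10, 11 and 0 counts in controls and 9, 0 and 7 after delipidation. A level taken from this part alone would place Nlrp5 near the bottom of the order, with a mean of 0.92.

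Padi6 and Nlrp4f were covered more evenly. Padi6 lies on the reverse strand of chromosome 4 between 140727355 and 140742643, and 19 of its 20 parts had counts in at least 1 library. The exception, of 122 bases at chr4:140741526-140741647, had 0 counts in all 6 libraries. Another part, of 77 bases at chr4:140732967-140733043, had 0, 2 and 0 counts in controls and 0, 1 and 0 after delipidation. All 10 parts of Nlrp4f, on the reverse strand of chromosome 13 between 65177111 and 65205716, had counts in each library. Its largest part, of 1570 bases, carried 34.6% to 42.4% of the gene's counts. Nlrp2 was covered in 6 of 17 parts in delipidated replicate 1 and in 15 of 17 in delipidated replicate 3.

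Zbed3, on the forward strand of chromosome 13, owed nearly all of its counts to a single part. The last exon, 1786 bases at chr13:95336056-95337841, had 38203, 23734 and 30967 counts in controls and 36702, 37351 and 65836 after delipidation. The only other part listed, a first exon of 108 bases at chr13:95325237-95325344, had 23, 29 and 25 counts in control and 34, 75 and 51 in delipidated embryos. The first exon thus held between 0.0602% and 0.200% of the gene's counts, or 0.37 counts per base against 21.7 over the last exon. Because 1 part dominates, multiple counting of reads adds little to the sum for Zbed3. The reference annotation of the same build (GENCODE release M21) has other first exons of Zbed3 at chr13:95323612-95323770 and chr13:95326767-95326944. Neither is among the counted parts, and use of these starts was not tested.

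**Figure D4:**
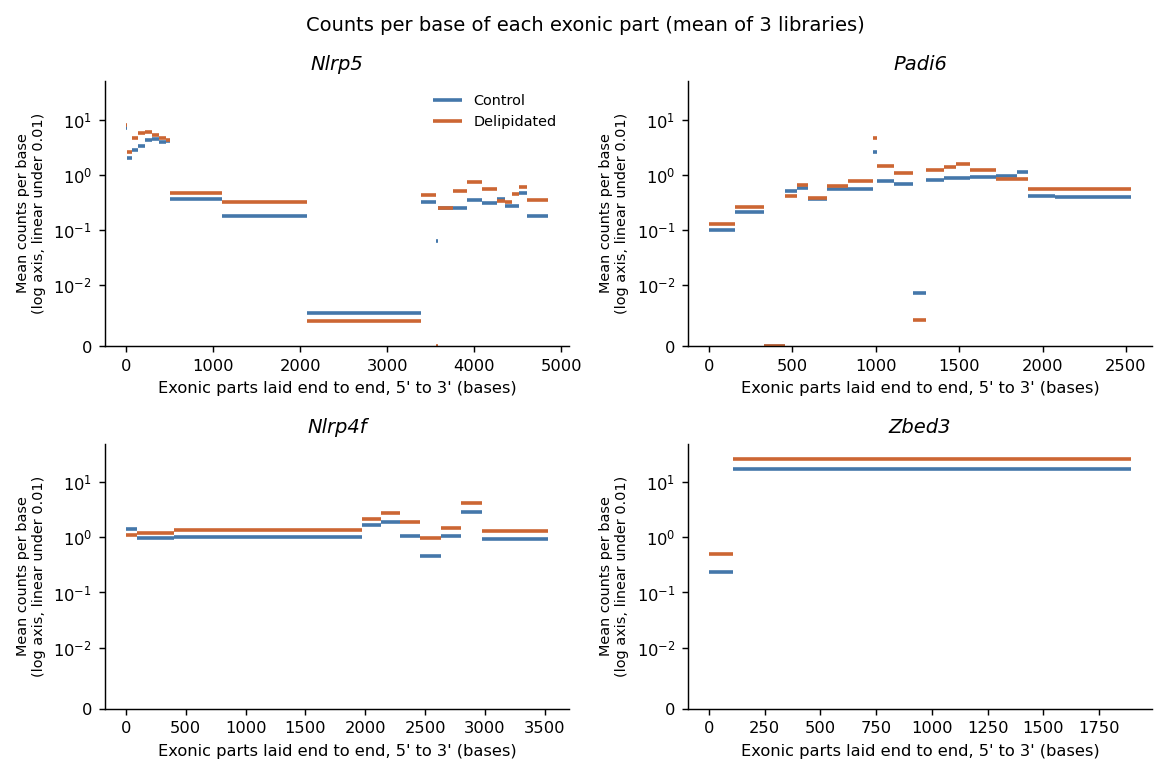
Mean counts per base over 3 libraries in each exonic part of Nlrp5, Padi6, Nlrp4f and Zbed3, with parts laid end to end from 5′ to 3′ (log axis, linear under 0.01). The first 8 parts of Nlrp5 average 4.30 counts per base over the 6 libraries, and the last exon of Zbed3 averages 21.7.

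Annotated starts differed in how many counts their first parts had. RefSeq lists 12 start regions for the 8 genes in GRCm38.p6, each with 250 bases before and 50 after the start; 3 belong to Zbed3 and 2 each to Nlrp5 and Tle6. The upstream start of Tle6 on the reverse strand of chromosome 10 lies at the edge of a 25-base part that had 19 to 45 counts per library. A part of 95 bases still further upstream, at chr10:81600979-81601073, had 0 counts in all 6 libraries. The 5 parts around its other start, at chr10:81597296-81597590, had 0, 4 and 35 summed counts in controls and 0 in every delipidated library. In control replicate 3 each of these parts had 7 counts, so the same few reads may be counted in several of them. The sum rests mainly on that library and is too low to compare the groups. Both starts of Tle6 and the 3 of Zbed3 are printed. The former were chosen because the parts at the 2 starts differed in counts from each other. The latter were chosen because Zbed3 was the most abundant member and these starts lie outside its counted parts. Capitals mark CANNTG, the E-box, which reads the same on both strands and is bound by helix-loop-helix factors such as FIGLA in the oocyte and MLXIPL (ChREBP).
Tle6, chr10:81600851-81601150: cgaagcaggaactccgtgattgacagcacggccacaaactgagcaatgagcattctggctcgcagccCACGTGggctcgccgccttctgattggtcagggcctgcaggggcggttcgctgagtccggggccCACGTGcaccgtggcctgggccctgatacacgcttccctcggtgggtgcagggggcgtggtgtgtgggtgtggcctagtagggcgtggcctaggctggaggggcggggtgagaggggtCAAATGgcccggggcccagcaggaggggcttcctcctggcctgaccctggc
Tle6, chr10:81597318-81597617: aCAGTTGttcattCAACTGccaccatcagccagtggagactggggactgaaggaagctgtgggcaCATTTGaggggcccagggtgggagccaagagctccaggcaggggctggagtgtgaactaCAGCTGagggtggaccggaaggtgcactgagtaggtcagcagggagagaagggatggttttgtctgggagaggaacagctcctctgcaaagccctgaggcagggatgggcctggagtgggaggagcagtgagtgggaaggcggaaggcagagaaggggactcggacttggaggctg
Zbed3, chr13:95323355-95323654: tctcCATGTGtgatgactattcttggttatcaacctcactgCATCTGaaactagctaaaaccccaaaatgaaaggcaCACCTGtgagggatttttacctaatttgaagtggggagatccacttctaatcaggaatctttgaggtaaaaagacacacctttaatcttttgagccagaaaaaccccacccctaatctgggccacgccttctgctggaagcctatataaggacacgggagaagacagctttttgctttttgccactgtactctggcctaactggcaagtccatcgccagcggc
Zbed3, chr13:95324575-95324874: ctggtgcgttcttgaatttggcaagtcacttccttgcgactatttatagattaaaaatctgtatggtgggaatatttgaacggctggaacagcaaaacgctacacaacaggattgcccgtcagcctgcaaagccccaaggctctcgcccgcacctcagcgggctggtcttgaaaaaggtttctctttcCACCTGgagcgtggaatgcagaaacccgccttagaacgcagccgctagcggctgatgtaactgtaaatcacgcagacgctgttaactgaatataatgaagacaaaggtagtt
Zbed3, chr13:95326517-95326816: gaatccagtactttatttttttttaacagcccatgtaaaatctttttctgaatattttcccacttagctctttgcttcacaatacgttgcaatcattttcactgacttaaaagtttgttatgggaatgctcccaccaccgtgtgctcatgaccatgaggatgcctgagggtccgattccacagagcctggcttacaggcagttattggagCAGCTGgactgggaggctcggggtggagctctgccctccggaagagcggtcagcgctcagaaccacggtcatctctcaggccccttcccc
The sequences run 5′ to 3′ on the strand of the gene, reverse for Tle6 and forward for Zbed3. CANNTG was present in 11 of the 12 member regions, Nlrp2 being the exception, and in 72.3% of 32851 RefSeq regions of the same length. The stricter E-box CACGTG, a form of CANNTG, occurred in 1 of the 12, the upstream region of Tle6, which has 2 copies, and in 7.15% of all regions. TAATTG on either strand, a letter sequence bound by homeodomain factors such as NOBOX, was found in 2 of the 12 (Ooep and Padi6) and in 8.0% of all. A match describes letters in the window and not a site in use.

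Genes related to the members by family or function were not called either. Of 10 other oocyte NLRP genes, 9 were tested and 0 were called, with 6 log2 fold changes above 0, 3 below and a median of 0.26. The most abundant was Nlrp4g, with 1576, 878 and 1359 counts in control and 2625, 1104 and 3020 in delipidated embryos. Nlrp4g also shares the most sequence with Nlrp4f, 162 of whose 4171 windows of 50 bases occur in it. Only unique reads were counted, so reads that fit both copies equally well are left out. The only one not tested, Nlrp4d, did not pass the filter on low counts and had at most 27 counts in a library. Of 10 inflammasome NLR genes and adaptors, which act in immune cells, 5 were tested and 0 called, and the median was 0.47, with Nlrp12 as the most abundant.

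The 4 KH-domain relatives of Ooep and Khdc3 were all tested, 0 were called, and their median log2 fold change was -0.0078. Khdc1b was the most abundant of them at 865 ± 112 CPM in control and 885 ± 160 CPM in delipidated embryos (SD, n = 3 each). Of the other peptidylarginine deiminases, Padi2 and Padi4 were tested and 0 were called, with a median of 0.29 and at most 116 counts in a library. Of 4 measured TLE corepressors 0 were called, 3 were below 0 and the median was -0.47. The groups of 2 of the 4, Tle4 (log2 fold change -0.35) and Tle1 (0.36), did not overlap, beside 8.86% of all tested genes. Zbed4 and Zbed5, the ZBED genes tested beside Zbed3, had log2 fold changes of 0.19 and 0.13.

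Among 5 genes for proteins linked to the complex (Cfl1, Uhrf1, Dnmt1, Axin1 and Gsk3b), 0 were called and the median was 0.14. Dnmt1 had 365 ± 61.9 CPM in control and 414 ± 35.3 CPM in delipidated embryos (SD, n = 3 each). Of 7 transcription factors of the growing oocyte, 5 were tested and 0 called, with a median of -0.03; Figla was not tested, with at most 18 counts in a library. Of 12 other maternal-effect genes 0 were called, 6 were above and 6 below 0, and the median was -0.01. Pms2, a mismatch repair gene, had the smallest p-value of them, with 154 ± 24.8 CPM in control and 110 ± 6.44 CPM in delipidated embryos (SD, n = 3 each) and an adjusted p-value of 1.00 in edgeR's quasi-likelihood test. The groups of 1 of the 12, Pms2, did not overlap, beside 8.86% of all tested genes. Of 17 tested 2-cell stage activation genes 0 were called and the median was 0.05. No gene in any of these lists had an unadjusted p-value under 0.05, against 1.15% of tested genes that were higher and 1.74% that were lower in delipidated embryos.

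Markers of other cells varied between libraries; by the study's methods, cumulus cells had been taken off with hyaluronidase before culture. The summed stromal markers Col1a1, Col1a2, Dcn and Vim were 14.9, 13.2 and 27.1 CPM in controls and 0, 0 and 3.81 CPM after delipidation. Vim had 152, 145 and 300 counts in controls and 0 in every delipidated library; the value of delipidated replicate 3 came from Col1a2 and Dcn, with 27 counts each. The longer stromal list summed to 18.3, 18.7 and 28.9 CPM in controls and 1.93, 3.50 and 4.09 CPM after delipidation. Of its 4 tested genes, 4 were below 0 and 2, Vim and Col1a1, had an unadjusted p-value under 0.05, with 0 called. The groups of these 2 genes did not overlap, beside 8.86% of all tested genes. The adjusted p-value of Vim was 0.0721 in edgeR's quasi-likelihood test. The shorter set of cumulus and granulosa markers summed to at most 1.81 CPM in any library, with Foxl2 and Ptx3 at 0 in all 6, but the longer list summed to 19.5, 28.5 and 80.8 CPM in controls and 12.0, 33.2 and 18.6 CPM after delipidation. In it, Cyp11a1 had 653 counts in control replicate 3, 4 in control replicate 1 and 0 in the other libraries, and Amhr2 had between 92 and 385 counts. Leukocyte markers reached at most 5.44 CPM in the shorter set and 6.67 CPM in the longer list, and oviduct epithelium markers at most 9.33 CPM in both. In the longer lists of these cell types 0 genes were called out of 4 tested for cumulus, 2 for leukocytes and 1 for oviduct. The part of RNA from other cells in the levels of the members was not tested.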

How the data were processed

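The authors deposited raw counts per exonic part. Per the labels and the study's methods, stranded total RNA libraries were read from both ends, trimmed with Trimmomatic 0.36, aligned with STAR 2.5.2b and counted with featureCounts over unique reads within exons; the labels name mm10, and whether counting used strand is not given in the sources used here. Counts were summed per gene. Of 33309 parts under joined identifiers, 27968 overlapped the exons of 1 gene in GENCODE M21 (GRCm38) and went to it; the rest, 2.49% to 2.57% of a library, were left out. Groups, taken from sample titles, were tested in R 4.3.3 by the quasi-likelihood method of edgeR 4.0.16 (TMM, no covariates, low counts filtered by filterByExpr at a count of 10 and a total of 15), with Benjamini-Hochberg adjustment over all tested genes; standard errors are those implied by the test. Alternatives were DESeq2 1.42.0, limma-voom (limma 3.58.1), other scalings, filters and choices of parts, the replicate number as a block, and each library left out.

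The members and lists were chosen with earlier results of these data known. Named genes are the 8 members, from each list up to 2 with the smallest p-values and the most abundant, and the 5 genes most alike the members (log2 of CPM plus 0.5, mean CPM of at least 10); of these the text gives a selection. Named outside this rule, after their values were seen, are Nlrp4d, Figla, Cyp11a1, Dppa3, Col1a2, Dcn, Foxl2 and Ptx3. Marker sets and the genes for linked proteins are named as sets. Tle5, Tle7 and Dux were not matched by symbol. The 14 lists covered oocyte NLRP, inflammasome, KH-domain, deiminase, TLE and ZBED genes, linked proteins, oocyte transcription factors, maternal-effect and 2-cell activation genes, and markers of 4 other cell types. Start regions are from RefSeq (GRCm38.p6).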

Additional observations from a re-analysis of the deposited data

How the results depend on the processing

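The count of 0 members called held in edgeR, DESeq2 and limma-voom and in each alternative run, with adjusted p-values between 0.718 and 1.00. Over all genes, 0 were called higher and 0 lower in edgeR; DESeq2 with no filter called 9 higher and 40 lower, and edgeR with no filter on low counts called 5 higher and 25 lower, where genes with few counts entered; the cause was not tested further. With each library left out, the count of calls stayed at 0 in either direction and for the members. The replicate block gave 0 calls; same-numbered deviations correlated at -0.08, 0.07 and 0.04, so the numbers do not pair the libraries. Nlrp5 and Nlrp2 kept a positive log2 fold change in all 17 alternatives; Ooep, Tle6, Padi6 and Nlrp4f changed sign in 2 each, Zbed3 in 1 and Khdc3 in 6 of 16. Khdc3 could not be fitted with single-identifier parts or a mean count of at least 50.

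The groups of 0 members separated, but of 1 (Nlrp2) with the part of most counts and of 1 (Khdc3) with shared parts, beside 8.86% of all tested genes and 8.9% with the part of most counts. For control means of the length-scaled level, the longest part gave 1.13 for Nlrp5 in place of 81.3, 30.6 for Tle6 in place of 67.0, 1.74 for Khdc3 in place of 4.39 and 3655 for Zbed3 in place of 2494. The longest part of Khdc3 had 0, 11 and 0 counts in controls, so its 1.74 rests on control replicate 2 alone. Lengthened parts, chosen after seeing the data, gave 101 for Nlrp5, 32.9 for Ooep, 46.4 for Tle6, 4551 for Zbed3 and 260 for Nlrp4f; the cause was not tested. The lowest summed counts in a library were 12 for Khdc3, 92 for Ooep and 148 for Nlrp2.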
